A study of Homo sapiens with 4 samples.

Results

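Day 6 was compared with day 3 of osteoblast mineralization in hFOB 1.19 cells, a clonal human fetal osteoblast line that carries a temperature-sensitive form of the SV40 large T antigen. These cells proliferate at a lower, permissive temperature and differentiate when they are moved to 39.5°C. Both days followed that move, so this step holds no change of temperature, and both libraries were made from total RNA of the same line undergoing mineralization. The series holds 4 libraries, 1 each for days 0, 3, 6 and 9, and days 0 and 9 are given only beside the values of days 3 and 6. With 1 library a day there is no replicate check, so no test was made, and no p-value or SD can be given for any difference below. Levels are FPKM, that is fragments per kilobase of transcript scaled to the size of the library, summed over the transcripts of each gene symbol. A gene was kept where its FPKM reached 1 on either day. Of 19610 mRNA symbols, 12610 were kept, and of 3214 lncRNA symbols, 2131 were kept. The difference is the log2 ratio of day 6 to day 3 after 1 was added to each FPKM, and a gene is called higher or lower where that ratio is 2-fold or more. Adding 1 understates the change of genes at low levels.

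An osteoblast builds bone in stages: it leaves the cell cycle, lays down a collagen matrix and then mineralizes it, with RUNX2 as the master transcription factor. Osteoblasts and other stromal cells can also secrete chemokines and cytokines. Many of these genes are switched on by NF-kB, a transcription factor that enters the nucleus when its inhibitor, encoded by NFKBIA, is degraded. Type I and type III interferons act through a different route: their receptors signal through JAK kinases to a DNA element, the ISRE, in front of antiviral genes such as MX1, OAS1 and IFIT1.

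Between day 3 and day 6 genes of inflammatory signalling rose, interferon-stimulated genes fell, and most other genes stayed close to their day 3 level. Of the 12610 mRNA genes, 78 were higher on day 6, which is 0.619% of them, and 57 were lower, which is 0.452%. The median log2 ratio was -0.003, the interquartile range was 0.28 on the log2 scale, and 11801 genes (93.6%) lay within 0.5 of 0. Of the 78 genes that were higher, 19 belong to lists of chemokines, secreted cytokines or NF-kB genes, of which 47 members were kept. Of the 57 genes that were lower, 8 belong to a list of interferon-stimulated genes, of which 31 were kept. No member of the inflammatory lists was lower, and no member of the interferon list was higher. All lists used here and below were chosen with earlier results of these data known. Their counts and medians are therefore a description and not independent support.

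**Figure D1:**
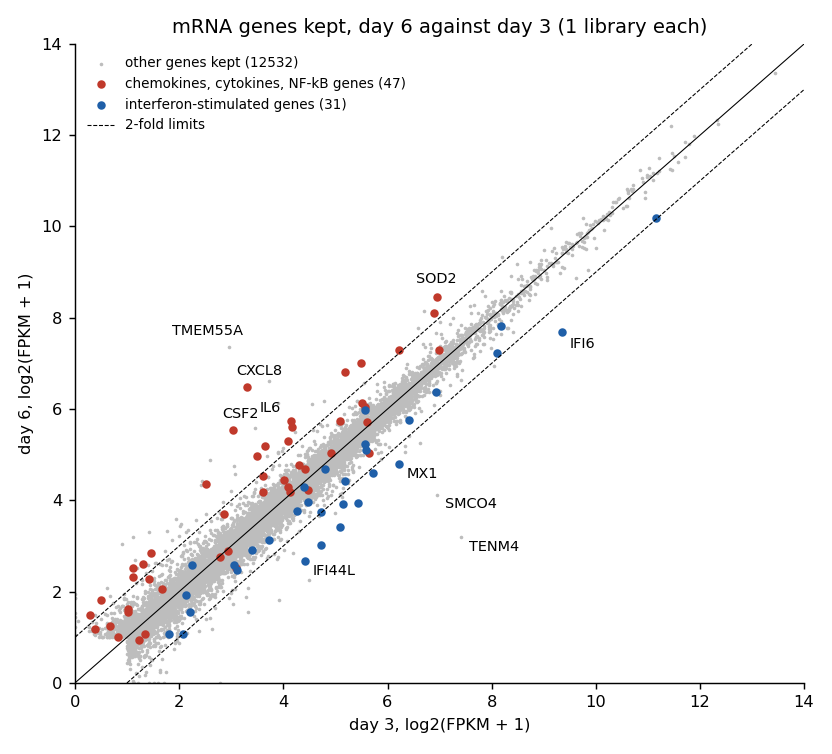
Level of each kept mRNA gene on day 3 (x axis) and day 6 (y axis), as log2(FPKM + 1), 1 library a day. Of the 47 inflammatory genes (red) 19 lie above the upper 2-fold line, and of the 31 interferon-stimulated genes (blue) 8 lie below the lower 2-fold line.

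The chemokines, secreted proteins that attract leukocytes, showed the highest median of the 34 lists examined, which were chosen with earlier results known. Of 14 kept members 8 were higher and 0 were lower, against 0.619% and 0.452% of all mRNA genes, and their median log2 ratio was 1.19 against -0.003 for all genes. CXCL8, a neutrophil attractant also called interleukin 8, had FPKM of 3.02, 8.82, 89.1 and 452 on days 0, 3, 6 and 9. It was 9.17-fold higher on day 6 than on day 3, a log2 ratio of 3.20. Its relatives with the same receptor moved in the same direction by less. CXCL1 had FPKM of 4.48, 11.5, 35.7 and 103 on days 0, 3, 6 and 9, and was 2.94-fold higher on day 6. CXCL2 went from 1.15 to 4.70 and CXCL6 from 1.76 to 6.15 between day 3 and day 6. Among the monocyte attractants, CCL2 had FPKM of 23.8, 117, 276 and 313 on the 4 days and was 2.34-fold higher on day 6. CCL7 went from 1.17 to 3.99, and the eosinophil attractant CCL11 from 0.224 to 1.78. CXCL10, which attracts T cells and can be induced by interferons as well as by NF-kB, went from 1.46 to 5.04. These 8 genes covered a wide range of levels, and CCL2 and CXCL8 were the only ones above an FPKM of 50 on day 6. CXCL12, the stromal chemokine that retains blood stem cells in marrow, did not move with them: its FPKM were 4.06, 49.2, 31.8 and 20.4, a log2 ratio of -0.61 between day 3 and day 6. CXCL16, CXCL11 and CCL5 also had log2 ratios below 0, between -0.57 and -0.27.

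Of 14 kept secreted cytokines and growth factors, 6 were higher and 0 were lower, with a median log2 ratio of 0.71. CSF2 encodes GM-CSF, which drives the growth of granulocytes and macrophages. Its FPKM were 0.137, 7.13, 45.6 and 130 from day 0 to day 9, and it was 5.73-fold higher on day 6 than on day 3. Both forms of interleukin 1, which activate NF-kB through their receptor, were higher. IL1A had FPKM of 1.37, 4.68, 19.5 and 44.8 on the 4 days, a log2 ratio of 1.85 between days 3 and 6. IL1B stood higher on every day, at 5.41, 43.9, 127 and 280, and its log2 ratio was 1.51. IL6, which signals through STAT3 and in bone promotes osteoclast formation, had FPKM of 4.81, 16.7, 52.2 and 148 and was 3.00-fold higher on day 6. IL32 went from 73.1 to 157. IL34, an alternative ligand of the CSF1 receptor, went from 0.41 to 2.52, but its log2 ratio was only 0.57 over the transcripts that were above 0 on both days. The cytokines that control osteoclasts most directly were within 2-fold. CSF1 had FPKM of 44.7 and 68.9 on days 3 and 6, and TNFRSF11B, the decoy receptor osteoprotegerin, had 20.2 and 24.9. TNFSF11, which encodes RANKL, was listed at 0.223 and 0.118, below the level at which a gene was kept. TNF, the classical inducer of NF-kB, was listed at 0.0973 and 0.0302.

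All 19 kept genes of NF-kB and its feedback had log2 ratios above 0, where 49.5% of all mRNA genes did, and 5 of them were higher by the 2-fold limit. The median of the list was 0.58. ICAM1, the adhesion molecule that binds leukocyte integrins, had FPKM of 26.6, 35.2, 111 and 164 on days 0, 3, 6 and 9 and was 3.09-fold higher on day 6. SOD2, the mitochondrial superoxide dismutase, had 43.9, 123, 350 and 518, a 2.83-fold difference between day 3 and day 6. BIRC3, an inhibitor of apoptosis, went from 10.2 to 30.5, complement C3 from 16.9 to 47.4, and TNFAIP3, the A20 protein that shuts NF-kB signalling off, from 16.0 to 38.1. The subunits of the factor itself differed less. RELB had a log2 ratio of 0.91, NFKB2 of 0.66, NFKB1 of 0.43 and RELA of 0.12, and the inhibitor NFKBIA stood at 46.3 on day 3 and 65.1 on day 6. Of the receptors looked up after these values were seen, IL1R1 had FPKM of 4.22 and 3.99 on days 3 and 6, and TLR4 had 17.3 and 17.9. The TLR4 partner LY96, in contrast, went from 1.65 to 4.97. Other genes looked up at that point moved less or fell. C1R and C1S had log2 ratios of 0.32 and 0.53, CFB of -0.06 and the lncRNA NKILA of -0.75.

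The interferon-stimulated genes went the opposite way. Of 31 kept genes 8 were lower and 0 were higher, against 0.452% and 0.619% of all mRNA genes, 29 had a log2 ratio below 0, and the median was -0.64, the lowest of the 34 lists. IFI6, which encodes a mitochondrial protein that opposes apoptosis, was the most abundant of the 8, with FPKM of 510, 649, 204 and 176 on the 4 days. It was 3.16-fold lower on day 6 than on day 3. MX1, a GTPase that blocks influenza virus, had FPKM of 140, 73.5, 26.7 and 19.6 and was 2.69-fold lower, and its paralog MX2 went from 25.4 to 7.14. IFIT1, which binds viral RNA caps, had 68.2, 32.9, 9.68 and 6.10, a log2 ratio of -1.66. OAS1 and OAS2 make the second messenger that activates RNase L. OAS1 had FPKM of 32.8, 42.4, 14.4 and 8.70 and was 2.82-fold lower on day 6, and OAS2 went from 34.5 to 14.1. IFI44L went from 20.2 to 5.37 and its neighbour IFI44 from 51.9 to 23.2. For IFI6, OAS1, OAS2 and MX2 the day 3 level was the highest of the 4 days, whereas MX1, IFIT1, IFI44 and IFI44L were highest on day 0.

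Other members of the interferon list lay just inside the limit. RSAD2, which encodes viperin, had a log2 ratio of -0.999, with FPKM of 3.20 and 1.10. IRF7, the factor that amplifies interferon production, went from 25.5 to 12.4, a log2 ratio of -0.98. IFI27 went from 2285 to 1169, a log2 ratio of -0.97, and the ubiquitin-like ISG15 from 273 to 150. The signalling factors STAT2 and IRF9 had log2 ratios of -0.48 and -0.33. The 2 members above 0 were IRF1 at 0.41 and GBP2 at 0.34, genes that respond strongly to interferon gamma. IFITM1, an antiviral membrane protein outside the list and named after its value was seen, was also lower, with FPKM of 162, 264, 121 and 74.8. Its relatives IFITM2 and IFITM3 had log2 ratios of -0.72 and -0.81. Of 3 interferon genes looked up after these values were seen, IFNB1 was listed at 0 on both days, IFNL1 at 0.0768 on day 3 and 0 on day 6, and IFNE, a type I interferon, at 2.76 and 3.21. The receptor genes IFNAR1 and IFNAR2 and the kinase genes JAK1 and TYK2 had log2 ratios between 0.11 and 0.26. In bulk RNA, fewer cells that express a gene and less of its RNA per cell cannot be told apart, for this and for every other difference given here.

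**Figure D2:**
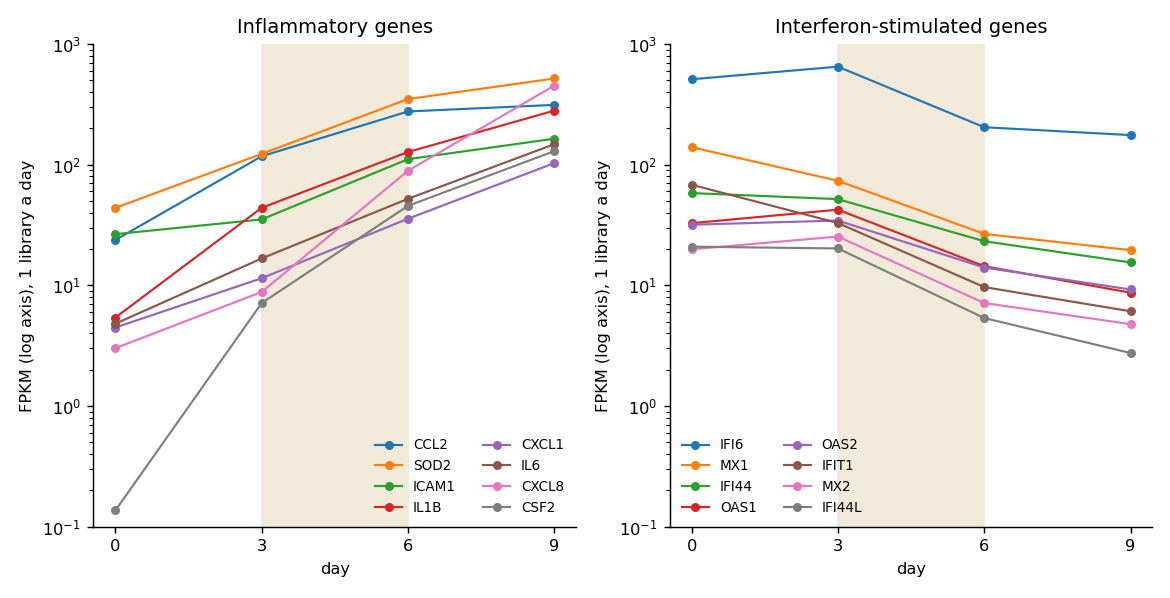
FPKM (log axis) against day for 8 inflammatory genes (left) and the 8 interferon-stimulated genes that were lower on day 6 (right), 1 library a day, with the step from day 3 to day 6 shaded. CXCL8 rose from 8.82 to 89.1 across the shaded step, and IFI6 fell from 649 to 204.

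The steps on either side share a library with this one, so their values are set side by side without a count of common genes. From day 0 to day 3, which includes the move to the higher temperature, 8.28% of 12626 mRNA genes were 2-fold higher and 5.39% were lower. From day 6 to day 9, 0.391% of 12548 genes were higher and 0.167% were lower. The chemokine list had a median log2 ratio of 0.71 from day 0 to day 3, 1.19 from day 3 to day 6 and 1.03 from day 6 to day 9. Its members past 2-fold numbered 5 of 13, 8 of 14 and 8 of 15, and all of them were higher. The cytokine list had medians of 1.38, 0.71 and 0.46 over the same steps, and the NF-kB list of 0.62, 0.58 and 0.32. The interferon-stimulated genes had medians of -0.05, -0.64 and -0.20, with 4, 8 and 0 of 31 genes lower. The step from day 3 to day 6 thus held the lowest median of the interferon list and the highest of the chemokine list. The cytokine and NF-kB lists had their highest median from day 0 to day 3.

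Day 9 against day 0 shares no library with day 6 against day 3. Of the 78 genes higher on day 6 than on day 3, 58 (74.4%) were also 2-fold higher on day 9 than on day 0, where 9.78% of 12622 genes were, and 2 were lower. These 58 were 4.70% of the 1234 genes higher on day 9. Of the 57 lower genes, 20 (35.1%) were also lower on day 9 than on day 0, where 6.64% of the genes were, and 6 were higher. These 20 were 2.39% of the 838 genes lower on day 9.

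The promoters of some of these genes are shown because NF-kB and ISRE elements are textbook features of them. The sequences are those of RefSeq on GRCh38.p14, from 250 bases before to 50 after the start site. Promoters were found for 50 of the 78 higher genes and 36 of the 57 lower genes, and for 9661 of the 12610 kept. As fewer than 80% of each set had a sequence, a comparison of motif shares is void. Over the 9661 promoters 13.1% held an NF-kB motif on either strand, and no share of a gene list is set against it. Of 19 inflammatory genes that were higher, 15 had a promoter and 8 of these held the motif. A match describes the letters of the window and shows no binding. The sites of 5 of these genes are given with 10 bases on either side, 5′ to 3′ on the strand of the gene and with the NF-kB motif in capitals. All of them lie before the start site.
CXCL1, chr4:73869304-73869333, plus strand, 79 bases before the start: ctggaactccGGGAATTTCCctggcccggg
CXCL2, chr4:74099254-74099283, minus strand, 78 bases before the start: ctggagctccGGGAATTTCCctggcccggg
CXCL6, chr4:73836578-73836607, plus strand, 90 bases before the start: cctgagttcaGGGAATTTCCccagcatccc
IL6, chr7:22727117-22727146, plus strand, 73 bases before the start: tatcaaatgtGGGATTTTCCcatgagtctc
BIRC3, chr11:102317275-102317304, plus strand, 199 bases before the start: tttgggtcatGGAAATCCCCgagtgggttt
The 3 neighbouring chemokine genes on chromosome 4 carry the same 10 letters at 78 to 90 bases before the start. In BIRC3 the motif is on the opposite strand. CXCL8, CCL7, CSF2, IL1A, IL1B, ICAM1 and SOD2, which were higher too, held no match to these letters in the window.

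Among the 8 interferon-stimulated genes that were lower, 6 had a promoter and 5 of these held the ISRE motif (GAAA, any 2 bases, GAAA) on either strand. Over the 9661 promoters 2.95% did, but with 6 of 8 genes matched no comparison is made. In MX1 and IFI44 the match with 10 bases on either side did not lie wholly before the start site. OAS1 held no match, and no promoter was given for MX2 and OAS2. The sites of the other 3 genes are shown in the same way, with the motif in capitals.
IFIT1, chr10:89392497-89392526, plus strand, 116 bases before the start: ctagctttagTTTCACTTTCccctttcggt
IFI6, chr1:27672288-27672317, minus strand, 115 bases before the start: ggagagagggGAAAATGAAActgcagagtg
IFI44L, chr1:78620365-78620394, plus strand, 73 bases before the start: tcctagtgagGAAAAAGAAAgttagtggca
In IFIT1 the motif is on the opposite strand and a further copy begins 103 bases before the start. IFI6 held 3 matches and IFI44L 2, of which 1 each is shown.

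Of 7 kept osteoblast transcription factors none passed 2-fold, a count too small to read against the 0.619% and 0.452% of all mRNA genes. Their median log2 ratio was -0.21, and 5 of the 7 lay below 0. RUNX2 had FPKM of 7.37, 26.2, 19.3 and 18.2 on days 0, 3, 6 and 9, a log2 ratio of -0.42 from day 3 to day 6. SP7, the factor that acts after RUNX2, was listed at 0.134 and 0.0986. Of 8 kept genes of mineralization and bone matrix 1 was higher and 0 were lower. That gene was SPP1, which encodes the matrix phosphoprotein osteopontin, with FPKM of 0.794, 1.89, 5.14 and 7.45, 2.12-fold higher on day 6. ALPL, the alkaline phosphatase that frees phosphate for mineral, had 0.294, 4.32, 4.35 and 4.18. The late matrix genes BGLAP, which encodes osteocalcin, and IBSP stayed below 1 on both days, at 0.781 and 0.426 for BGLAP and at 0.0714 and 0.133 for IBSP. SPARC had FPKM of 1469 and 1351, COL1A1 of 1974 and 1587 and COL1A2 of 856 and 753 on days 3 and 6. Thus early matrix genes marked the cells on both days, while SP7, BGLAP and IBSP did not reach an FPKM of 1. PADI4, the gene at the centre of the study and a target of p53, had FPKM of 0.306, 6.33, 5.56 and 4.80, a log2 ratio of -0.16.

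Other parts of the matrix moved in single genes. None of 23 kept collagens, 18 collagen-processing genes or 7 small proteoglycans passed 2-fold, and the list medians were -0.13, -0.06 and -0.07. Such counts are too small to read against the 0.619% and 0.452% of all mRNA genes. The lowest among the collagens were COL5A3 at -0.67, COL12A1 at -0.55 and COL8A1 at -0.54. The crosslinking enzyme gene TGM2 lay just inside the limit at 0.96. ABI3BP, which encodes a secreted matrix protein, had FPKM of 6.34, 294, 646 and 933 and was 2.19-fold higher on day 6. PLAT, the tissue plasminogen activator, had 19.6, 95.0, 216 and 356 and was 2.27-fold higher. MFAP5, a microfibril protein, was 2.02-fold higher at a low level, 0.247 and 1.52, but its log2 ratio was 0.51 over transcripts above 0 on both days. The lists of matricellular and elastic fibre genes (18 kept) and of matrix proteases and their inhibitors (11 kept) had no further member past the limit, with medians of 0.11 and 0.18.

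**Figure D3:**
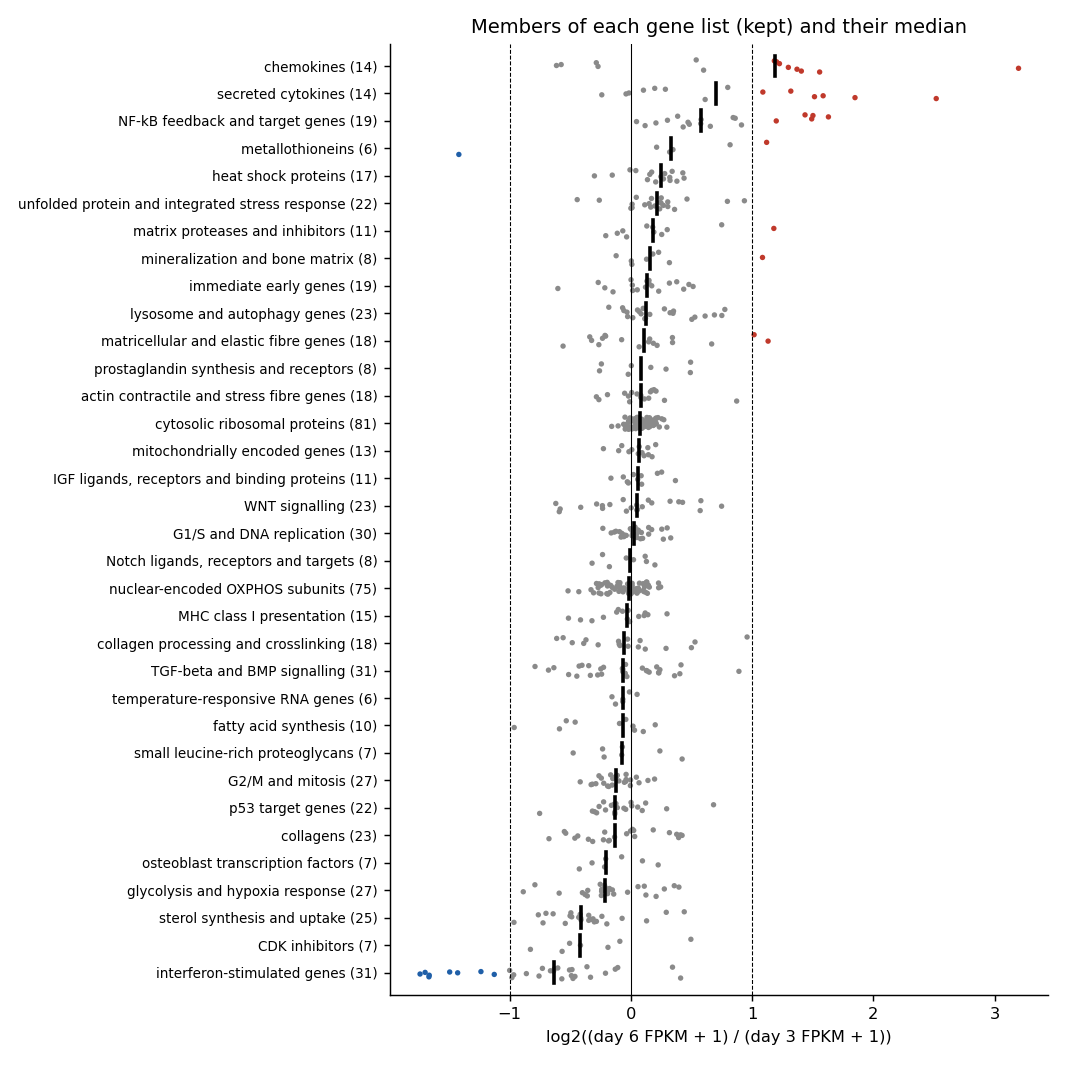
Log2 ratio of day 6 to day 3 for each kept member of 34 gene lists (points, red where 2-fold higher and blue where 2-fold lower) with the list median (black bar) and the number of kept members in brackets. Chemokines have the highest median (1.19) and interferon-stimulated genes the lowest (-0.64). No member is past 2-fold in 26 lists, where 0.619% of all mRNA genes are higher and 0.452% lower.

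Of 27 genes of G2/M and mitosis and 30 of G1/S and DNA replication none passed 2-fold, which over all mRNA genes 0.619% did upwards and 0.452% downwards. The medians were -0.12 and 0.02, and 23 of the 27 G2/M genes and 12 of the 30 G1/S genes had log2 ratios below 0, as did 50.5% of all mRNA genes. MKI67, a marker of dividing cells, had FPKM of 116, 52.3, 57.8 and 53.6 on days 0, 3, 6 and 9. The 22 p53 target genes, all of which were higher on day 3 than on day 0, had a median of -0.13. CDKN1A, the inhibitor of cyclin-dependent kinases that p53 induces, had FPKM of 74.7, 1524, 1391 and 1283. MDM2, which targets p53 for degradation, had the lowest ratio of the list at -0.75, and GDF15, a secreted stress factor, the highest at 0.68. The other CDK inhibitors had a median of -0.42 with none past the limit, and CDKN1C had the lowest value at -0.83.

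No gene of the stress and temperature lists passed 2-fold, where 0.619% of all mRNA genes were higher and 0.452% lower. RBM3, an RNA-binding protein induced by cold, had FPKM of 272, 9.21, 8.35 and 8.32 on these days. The 6 temperature-responsive RNA genes had a median of -0.07. The 17 heat shock proteins had a median of 0.25 and the 22 genes of the unfolded protein and integrated stress response of 0.22, with CHAC1 at 0.94 and ASNS at 0.80. In these lists 14 of 17 and 20 of 22 genes had log2 ratios above 0, against 49.5% of all mRNA genes. The 24 immediate early genes, of which 19 were kept, had a median of 0.13.

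The fixed lists of lipid and energy metabolism held no called gene, where 0.619% of all mRNA genes were higher and 0.452% lower. Of 25 genes of sterol synthesis and uptake 22 had a log2 ratio below 0, and the median was -0.41. HMGCS1, an early enzyme of cholesterol synthesis, had the lowest value at -0.96, and INSIG1, which holds the sterol sensor in the endoplasmic reticulum, went from 42.9 to 25.6. SCD, which makes monounsaturated fatty acids, went from 57.7 to 29.2, and the 10 fatty acid genes had a median of -0.07. Glycolysis and hypoxia genes had a median of -0.21, with ALDOC at -0.89 and NDRG1 at -0.79. GAPDH had FPKM of 1964 and 1724, and ACTB of 3066 and 2741. The 13 mitochondrially encoded genes, 81 cytosolic ribosomal protein genes and 75 nuclear OXPHOS genes had medians of 0.07, 0.07 and -0.02, and their members lay between -0.52 and 0.30.

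The remaining lists held few calls, and each is too small to read against the 0.619% and 0.452% of all mRNA genes. Metallothioneins, which bind zinc and copper, had 1 higher and 1 lower gene of 6 kept, MT3 from 0.296 to 1.82 and MT1A from 1.67 to a listed 0, and MT2A went from 566 to 999, a log2 ratio of 0.82. The median of the list was 0.33. These genes are near-identical, so reads may be shared among them. TGF-beta and BMP signalling (31 kept), WNT signalling (23), the IGF family (11), Notch (8), MHC class I presentation (15), contractile genes (18), prostaglandin genes (8) and lysosome genes (23) had medians between -0.07 and 0.12 and no gene past 2-fold. LTBP1, which stores latent TGF-beta in the matrix, had the highest value of the TGF-beta list at 0.89, and ID1, a target of BMP signals, the lowest at -0.79. In the lysosome list SQSTM1 and CTSL had 0.78 and 0.75.

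Of the kept markers of other cell types, too few to read against the 0.619% and 0.452% of all mRNA genes, none passed 2-fold. Their part in the differences above was not tested beyond these levels. Of 9 macrophage and osteoclast markers only ACP5 was kept, with FPKM of 4.11 and 3.47, and the list summed to 5.90 on day 3 and 4.93 on day 6. The leukocyte antigen PTPRC was listed at 0.295 and 0.0441, and CD163 at 0 on both days. Endothelial markers summed to 18.8 and 20.8, mostly from TEK, while PECAM1 was listed at 0 and 0.0065. Epithelial markers summed to 5.28 and 2.94 and skeletal muscle markers, none of which was kept, to 2.15 and 0.689. Adipocyte markers summed to 7.22 on day 3, where PPARG made up 5.17 of it, PPARG stood at 6.19 on day 6, and ADIPOQ was listed at 0 on both days. Of chondrocyte markers 3 of 8 were kept, and COL2A1 was listed at 0.153 and 0.0533. Of osteocyte markers only DKK1 was kept, at 91.2 and 59.0, with SOST listed at 0. All 9 mesenchymal markers were kept, with 4 log2 ratios above 0, 5 below 0 and a median of -0.09. NT5E had FPKM of 111 and 150, and PDGFRB of 55.5 and 31.8.

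The largest single differences were not all of 1 kind, because some rested on a single transcript that was listed at 0 on 1 of the days. An exact 0 for a transcript can be a failed estimate rather than an absent RNA. Of the 12 largest rises among genes with an FPKM of 5 or more on either day and above 0 on both, 7 were still past 2-fold when only transcripts above 0 on both days were summed, a setting chosen after the values were seen. These were CXCL8, CSF2, SAA1, UBD, TFPI2, ACAP1 and MCTP1. SAA1, an acute-phase protein, had FPKM of 1.12, 9.94, 46.7 and 208 on the 4 days, and was 4.36-fold higher on day 6. UBD, a ubiquitin-like protein induced by inflammatory cytokines, went from 4.41 to 20.5, and TFPI2, a protease inhibitor of the matrix, from 4.38 to 19.1. The other 5 were not: TMEM55A, COG6, EXOC6, R3HDM2 and GDPD3. TMEM55A had FPKM of 7.96, 6.81, 164 and 7.18, and 157 of the 164 on day 6 came from the transcript ENST00000630164, listed at 0 on day 3. Its log2 ratio of 4.40 became -0.11 without that transcript.

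Of the 12 largest falls among the same genes 9 were still past 2-fold with that setting. They include IFI44L, MX2, IFIT1, IFI6, OAS1 and MX1 of the interferon list. CLEC3B, which encodes the plasminogen-binding protein tetranectin found in mineralizing bone, had FPKM of 2.82, 14.05, 2.54 and 1.33 and was 4.25-fold lower on day 6. INHBB, a subunit of activin B, went from 5.17 to 1.25. LGALS7B went from 9.01 to 1.95, but it has a near-identical copy, LGALS7, so its reads cannot be placed with certainty. The other 3 were TENM4, SMCO4 and EXOG. TENM4 had FPKM of 1.38, 170, 8.12 and 8.45, and 164 of the 170 on day 3 came from the transcript ENST00000527736, listed at 0 on day 6. Its log2 ratio of -4.23 became 0.54 without it. Over all calls, 53 of 78 higher and 34 of 57 lower mRNA genes stayed past the limit. With that setting 8 chemokines, 5 secreted cytokines and 5 NF-kB genes were higher and 8 interferon-stimulated genes were lower.

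**Figure D4:**
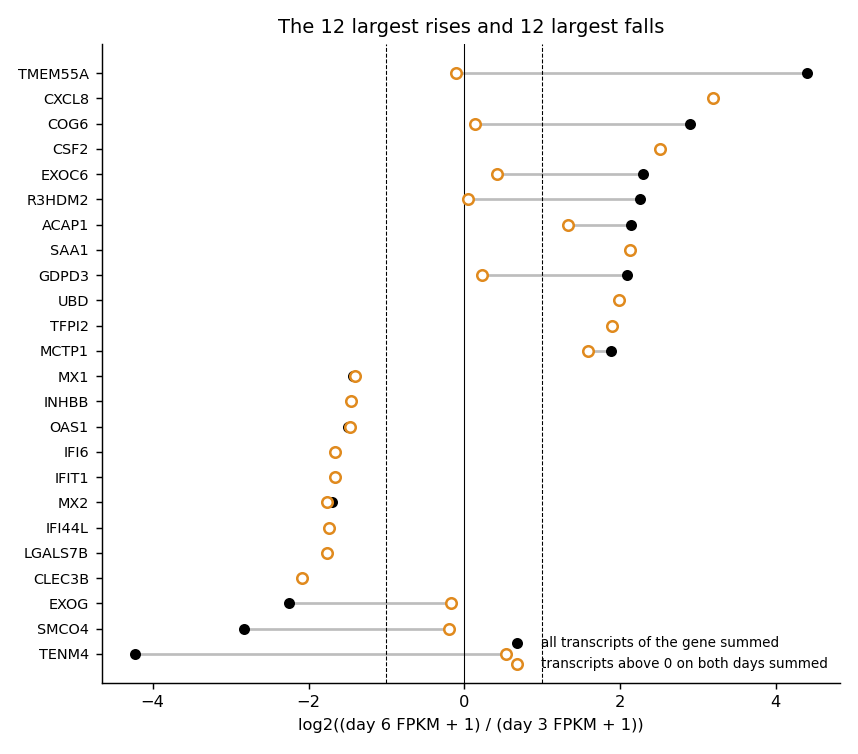
Log2 ratio of day 6 to day 3 for the 12 largest rises and 12 largest falls among mRNA genes above 0 on both days, with all transcripts of a gene summed (black) and with only transcripts above 0 on both days (open orange circles). CXCL8 stays at 3.20 and IFI6 at -1.66, whereas TMEM55A goes from 4.40 to -0.11 and TENM4 from -4.23 to 0.54.

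A few further called genes were named after their values were seen. NAMPT, which makes the precursor of NAD and is secreted as a cytokine, went from 45.8 to 93.7, and G0S2, an inhibitor of fat breakdown, from 103 to 282. OSTN, which encodes the bone and muscle hormone osteocrin, went from 1.21 to 5.50. CCND2, a D-type cyclin, had FPKM of 0.267, 17.7, 44.1 and 63.9. Among falls, the linker histone gene H1F0 went from 79.7 to 32.2 and the imprinted gene MEST from 79.5 to 35.2. The replication-dependent histone genes HIST1H3J, HIST1H1D and HIST2H2AB were also lower, at log2 ratios of -1.27, -1.07 and -1.03, but members of this family have near-identical copies. Other imprinted mRNA genes that were looked up lay within 2-fold and on both sides of 0. IGF2, SNRPN and PEG10 had log2 ratios of 0.09, 0.13 and 0.71, and GRB10, PLAGL1 and CDKN1C of -0.28, -0.47 and -0.83.

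Long non-coding RNAs spread more widely than mRNAs. Of 2131 lncRNA genes, 103 (4.83%) were 2-fold higher on day 6 and 95 (4.46%) were lower. Their median log2 ratio was -0.01 and the interquartile range was 0.52. Of the higher genes 59 were listed at 0 on day 3, and of the lower genes 62 were listed at 0 on day 6. With transcripts above 0 on both days, 37 and 30 of these calls stayed. Short multicopy RNAs took a large part: of 106 kept RN7SL, 7SK and similar genes 28 passed the limit upwards and 27 downwards, and reads of these families cannot be placed with certainty. Among 562 lincRNAs the higher genes numbered 26 and the lower genes 28.

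Among lncRNAs with an FPKM of 2 or more on either day and above 0 on both, the largest rises were RP3-473L9.4, GS1-600G8.5, RP11-539L10.3, RP11-490M8.1 and AC003092.1, all lincRNAs in the files. GS1-600G8.5 had FPKM of 0.649, 8.09, 39.5 and 97.8 on days 0, 3, 6 and 9, a log2 ratio of 2.15. AC003092.1 had 0.0948, 1.90, 9.31 and 41.7, a log2 ratio of 1.83. RP11-539L10.3 went from 0.875 to 6.29 and RP11-490M8.1 from 2.54 to 12.3. RP3-473L9.4 went from 3.81 to 29.7, but 25.7 of this came from a transcript listed at 0 on day 3. The largest falls among the same genes were RP11-525A16.4, RP11-807H7.2, RN7SL608P, 7SK and KCNQ1OT1_1. RP11-525A16.4 went from 13.2 to 0.190, of which 12.8 on day 3 came from a transcript listed at 0 on day 6. RP11-807H7.2 went from 3.62 to 0.349. KCNQ1OT1_1 went from 3.35 to 0.639, whereas KCNQ1OT1, listed under its own symbol, had 2.92 and 2.43, a log2 ratio of -0.19. H19, the imprinted fetal lncRNA, was named after its value was seen. It had FPKM of 1.36, 13.6, 4.97 and 2.65 and a log2 ratio of -1.29. The abundant MALAT1 and NEAT1 had log2 ratios of -0.30 and -0.22.

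The share of called genes differed between levels. Among mRNA genes it was 2.06% of the 921 whose larger FPKM was between 1 and 2, and 0.64% of the 5935 between 10 and 50. Among lncRNA genes it was 11.0% of 772 and 4.84% of 248 in the same ranges. At 50 or more, 16 of 1952 mRNA genes were higher and 10 lower (1.33%), and 0 of 47 lncRNA genes were higher and 4 lower (8.51%).

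**Figure D5:**
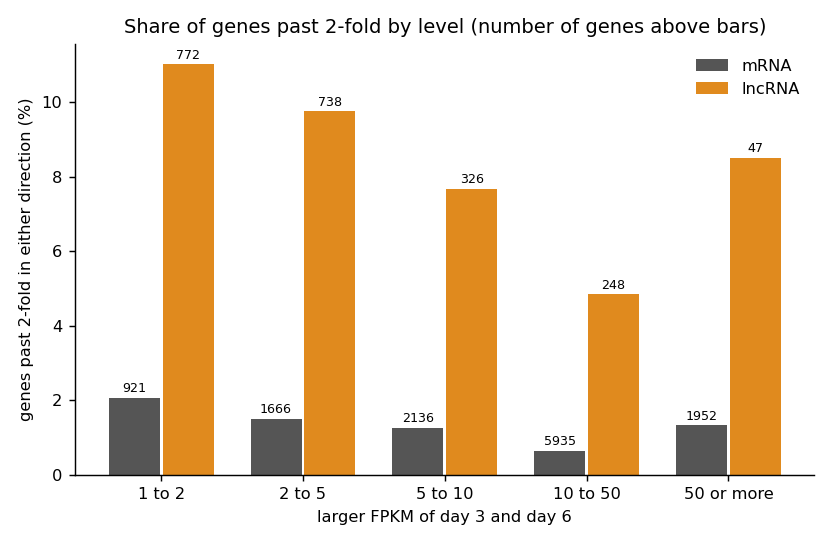
Share of genes past 2-fold in either direction (percent, y axis) by the larger FPKM of day 3 and day 6 (x axis), for mRNA (grey) and lncRNA (orange) genes, with the number of genes above each bar. The share is higher for lncRNAs than for mRNAs in each range, and for mRNAs it is lowest, at 0.64%, between 10 and 50.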

How the data were processed

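Total RNA of 4 hFOB 1.19 cultures, 1 for each of days 0, 3, 6 and 9, was depleted of ribosomal RNA and sequenced. The study's methods name Bowtie and TopHat for alignment. Per the labels, the processing notes name Bowtie 0.12.2 and mm8, a mouse build, although the transcript IDs are human. The program behind the FPKM is not given in the sources used here. The labels describe RNase R, which digests linear RNA, for the mRNA libraries. The authors deposited FPKM for each of 79798 mRNA and 4583 lncRNA transcripts, and columns were matched to samples by day. The 9 comparison tables of the authors, which hold fold changes and p-values, and the circRNA counts were not used, and 26 columns of per-sample values in them were left out.

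FPKM were summed per gene symbol, of which 17 mRNA symbols cover several gene IDs. Genes with an FPKM of at least 1 on day 3 or day 6 were kept, and log2((day 6 + 1)/(day 3 + 1)) was called at 2-fold. Counts per gene are not given in these tables, so no interval is given. Of 131 single transcripts with an FPKM below 0.05 on both days, 93.9% differed by ratios of small whole numbers (within 0.01 on the log2 scale) times a common step, which makes the day 6 library 1.07 times as deep as that of day 3.

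Named genes were the 12 largest rises and falls among called mRNAs at an FPKM of 5 or more and above 0 on both days, the 5 largest among lncRNAs at 2 or more, up to 4 members of each of the 34 lists, and a set of bone, cell cycle and reference genes. Any other gene, further members of these lists included, was named after its values were seen. Members and lists were chosen with earlier results of these data known. The code that applies the rule was run on simulated data with large differences built in. This checked the code only and gives no rate of false calls in these data. Alternatives covered the pseudocount, the minimum, the limit, a rescaling and single transcripts. Computations used pandas 2.3.3 and numpy 2.4.6 in Python 3.11.15, with plots by matplotlib 3.10.9.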

Additional observations from a re-analysis of the deposited data

How the results depend on the processing

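Each day has 1 library, so neither sampling nor culture variation can be separated from day, and the values describe these libraries. No paired analysis was possible because no day has a numbered replicate beyond its single library. With 0.1 in place of 1 added, 155 mRNA genes were higher and 133 lower, and 185 and 197 lncRNA genes. A minimum of 5 left 35 lower mRNA genes, and 22 higher and 19 lower lncRNA genes. A minimum of 1 on both days left 37 lower mRNA genes, and 19 and 16 lncRNA genes. A 4-fold limit left 9 and 5 mRNA and 18 and 20 lncRNA genes, and a 1.5-fold limit gave 290 and 279, and 238 and 223. With each transcript on its own, 1401 mRNA transcripts were higher and 1277 lower. Summing only transcripts above 0 on both days, which was chosen after the data were seen, gave 38 higher and 30 lower lncRNA genes, and reversed TMEM55A to -0.11 and TENM4 to 0.54. The mRNA counts became 57 and 40 under it, and 8 named genes went from past 2-fold to within it. Adding 0.5, using no minimum or rescaling day 6 kept every count within 1.5 times of the value above. The medians of all 34 lists and the 48 named genes kept their side of the limit with 0.1 or 0.5 added and after rescaling.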
